A study of Homo sapiens with 6 samples.

Results

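The genes described here are the expressed ZNF zinc finger genes of a renal carcinoma cell line and their levels after knockdown of the long non-coding RNA LINC02068. Of 477 genes in the count table whose symbol is ZNF followed by a number alone (ZNF395 left out), 173 had a mean of at least 10 CPM in the control libraries, where CPM (counts-per-million) scales a gene's count by its library's total. The table holds 60649 genes in all. The cells were of the 786-O line, long established from a human clear cell renal carcinoma, and each of 3 groups had 2 RNA sequencing libraries. The groups were shRNA1 and shRNA2, each carrying a different short hairpin RNA against LINC02068, and shControl, a control hairpin whose genotype the labels give as WT. The culture medium and serum were the same in every group, with no other agent. Whether hairpin-bearing cells were pools or single clones, and what the control hairpin targets, is not given in the sources used here. The genes were thus chosen by their control level, and so a gene whose 2 control libraries happened to read high was more likely to enter, which can pull the fold changes of genes near 10 CPM down. Counts with the threshold placed elsewhere therefore stand beside the main ones.

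ZNF genes encode mostly C2H2 zinc finger proteins, in which arrays of small zinc-binding units read DNA base by base. Many also carry a KRAB domain, through which they recruit the scaffold protein TRIM28 and, with it, the histone H3 lysine 9 methyltransferase SETDB1, so that bound sites, often transposable elements, are silenced. Others carry a SCAN domain for pairing with each other, or neither domain, and a few have left DNA for RNA, ribosomes or the mitotic spindle. Large clusters of KRAB genes on chromosome 19 arose by repeated gene duplication in primates and other mammals.

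Levels below are CPM after TMM scaling, fold changes are log2 values of both hairpins' mean over shControl with their standard error unless one hairpin is named, and adjusted p-values come from edgeR's quasi-likelihood test over 16039 tested genes. A gene is called lower or higher at an adjusted p under 0.05. Library totals ran from 15376448 to 37311846 counts, and TMM factors were 0.960 to 0.969 with the knockdown hairpins and 1.07 to 1.08 in shControl. LINC02068 itself was sparse, at 0.605 and 0.105 CPM with shRNA1 and 0.472 and 0.478 CPM with shRNA2, against 1.07 and 1.14 CPM in shControl. Its fold change was -1.46 ± 0.59 (adjusted p = 0.0447), a call that was lost under several settings, among them DESeq2 (adjusted p = 0.107) and leaving out any library but replicate 1 of shRNA1 (0.0972 to 0.219). Without replicate 2 of shRNA1 the fold change was -1.02. All 11 renal markers were present at 1 CPM or more in every library, and their summed level was 9474 to 9644 CPM with the knockdown hairpins against 8039 to 8045 CPM in shControl. That sum is mostly VIM (5899 to 5971 CPM with the hairpins, against 5142 and 5151 CPM in shControl) and KRT8, and single markers differed in direction, since VCAM1 had 125 to 139 CPM with the hairpins against 318 and 324 CPM in shControl, and EPAS1 281 to 283 CPM against 542 and 559 CPM. None of 5 leukocyte, 4 endothelial or 4 other epithelial markers reached 1 CPM in all libraries, while 3 of 5 fibroblast markers did (summed 11.8 to 13.2 CPM with the hairpins, against 16.4 to 16.6 CPM in shControl), of which LUM and PDGFRB lay below the controls and COL1A1 above. The part of those markers in the results was not tested, and in bulk RNA fewer cells of a kind and less RNA per cell cannot be told apart. Nothing in the labels says whether the 2 libraries of a group came from different cultures, and the p-values may then reflect only technical spread.

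The ZNF genes took a smaller share of the counts after knockdown. Together they held 0.399 and 0.399% of all counts with shRNA1 and 0.405 and 0.397% with shRNA2, against 0.517 and 0.517% in shControl. All 4 knockdown libraries lay below both controls. These are shares of unscaled totals, on which the median fold change of all tested genes was also below 0, at -0.18. The genes were also chosen by their control level. The median ZNF gene stood at 15.8 and 15.6 CPM with shRNA1 and at 16.5 and 15.5 CPM with shRNA2, against 17.9 and 18.1 CPM in shControl. For the mean of both hairpins 84 of the 173 genes were lower (48.6%), 18 were higher (10.4%) and 71 were not called. Over all tested genes 28.9% were lower and 28.6% higher, and over the 9769 tested genes that also reached 10 CPM in shControl 35.2% were lower and 38.2% higher. The median fold change of the ZNF genes was -0.24, with quartiles of -0.53 and 0.00, against -0.03 over all tested genes and 0.02 over tested genes at 10 CPM or more.

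Each hairpin gave a similar count. With shRNA1 74 genes were lower and 19 higher, against 25.6% and 26.8% of all tested genes, and the median was -0.24. With shRNA2 75 were lower and 20 higher, against 26.1% and 26.7% of all tested genes, and the median was -0.25. Both comparisons share the same 2 control libraries. In 92 genes (53.2%) all 4 knockdown libraries lay below both controls, in 23 (13.3%) all lay above, and in 58 the groups overlapped. Over all tested genes those shares were 34.2% below and 32.7% above, and over tested genes at 10 CPM or more 38.5% and 40.9%.

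**Figure D1:**
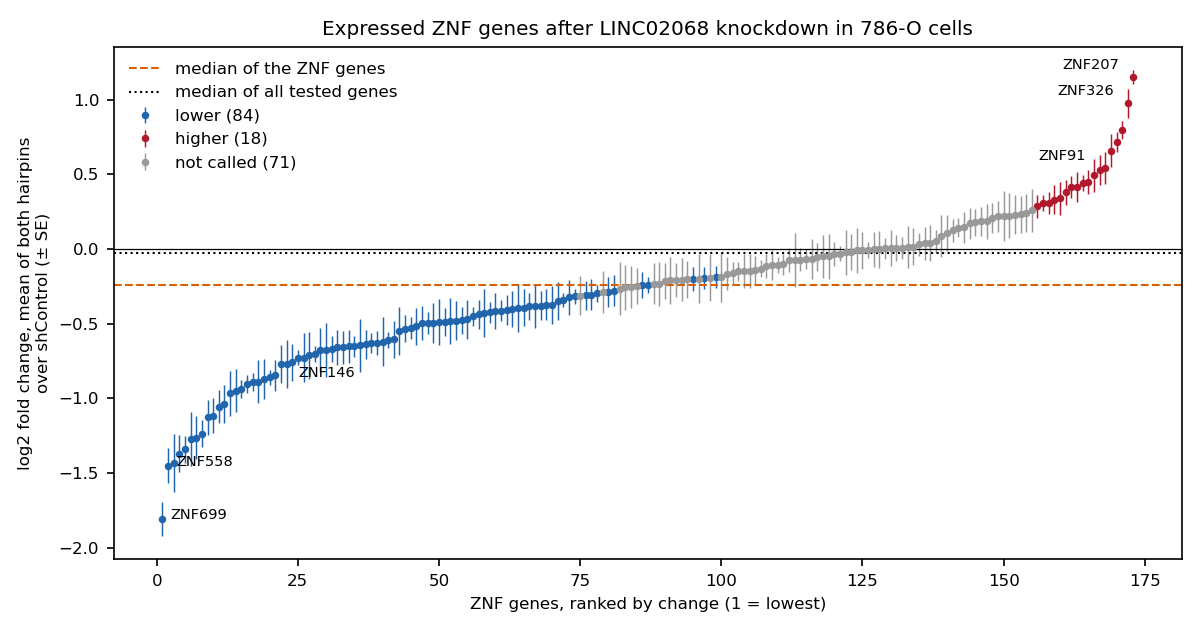
Fold change of each of the 173 ZNF genes, ranked from lowest to highest, as the log2 of both hairpins' mean over shControl (vertical axis, bars are standard errors), coloured by call. The curve crosses 0 well to the right of its middle, 84 genes are called lower and 18 higher, and the dashed median of the ZNF genes lies under the dotted median of all tested genes.

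The split moved with the level threshold. Choosing ZNF genes by 10 CPM in the knockdown libraries left 139 genes, of which 55 were lower and 23 higher, with a median of -0.13. Choosing them by 10 CPM as the mean of the knockdown and control means left 156 genes, with 69 lower and 21 higher. At 5 CPM in shControl 112 of 269 were lower and 27 higher, and at 20 CPM 47 of 84 were lower and 10 higher. Lower genes outnumbered higher ones at each of these thresholds. The shares of all tested genes chosen by these same rules are not given here. Whether the excess over such a background held at each threshold was therefore not tested. Without TMM scaling the median of all tested genes was -0.18 in place of -0.03, and that of the ZNF genes was -0.39 in place of -0.24.

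Most of the ZNF genes were expressed at a low to moderate level in the control cells. The control CPM that chose them ran from 10.0 to 128, with a median of 19.4, and 89 genes lay under 20 CPM while 26 reached 50 CPM. Even so, the lowest count of a ZNF gene in a library was 60 to 95 with the knockdown hairpins and 151 to 227 in shControl, so that no gene rested on a handful of counts. Per kilobase of exon the control level ran upward from 0.455 CPM (ZNF26), with a median of 3.33, and ZNF358, ZNF146 (28.4) and ZNF768 (25.1) had the most. Just inside the threshold lay ZNF133, ZNF45 and ZNF888, whose fold changes were -0.21 ± 0.14, -0.02 ± 0.15 and -0.23 ± 0.15. Just outside lay ZNF764, ZNF720 and ZNF616, at -0.59 ± 0.16, -0.13 ± 0.15 and -0.34 ± 0.16. Of these 6 genes only ZNF764 was called (adjusted p = 0.00556), though not without replicate 1 of shControl (0.0527), and ZNF616 was called without replicate 2 of shRNA2 (0.0458). With unscaled totals ZNF133, ZNF888 and ZNF616 were called lower (adjusted p = 0.0427, 0.0352 and 0.0150).

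Among the 6 ZNF genes with the highest control level, 5 were lower after knockdown. ZNF609, a partner of the cohesin loader NIPBL, had 94.3 and 93.6 CPM with shRNA1 and 101 and 95.6 CPM with shRNA2, against 114 and 125 CPM in shControl. ZNF146, a short protein made almost wholly of fingers, had 64.8 and 63.0 CPM with shRNA1 and 63.8 and 68.8 CPM with shRNA2, against 116 and 119.5 CPM in shControl. ZNF318, which in mouse B cells governs the switch to IgD transcripts, had 61.2 and 63.0 CPM with shRNA1 and 60.7 and 63.8 CPM with shRNA2, against 102 and 104 CPM in shControl. In each of these 3 genes every knockdown library lay below both controls. The fold change was -0.32 ± 0.05 (adjusted p = 4.05e-05) for ZNF609, -0.86 ± 0.05 (adjusted p = 8.21e-10) for ZNF146 and -0.73 ± 0.05 (adjusted p = 6.02e-09) for ZNF318. ZNF106, an RNA-binding zinc finger protein, had 74.6 and 75.5 CPM with shRNA1 and 80.4 and 84.9 CPM with shRNA2, against 101 and 98.8 CPM in shControl. ZNF217, an oncogene amplified in breast cancer whose product joins the LSD1 and CoREST complex, had 58.0 and 58.9 CPM with shRNA1 and 66.8 and 62.6 CPM with shRNA2, against 93.7 and 94.2 CPM in shControl. These 2 genes also showed no overlap between knockdown and control libraries, with fold changes of -0.34 ± 0.05 (adjusted p = 1.84e-05) and -0.61 ± 0.05 (adjusted p = 6.69e-08). ZNF664 had 91.3 and 94.8 CPM with shRNA1 and 90.8 and 94.2 CPM with shRNA2, against 87.7 and 98.3 CPM in shControl, the groups overlapped, and its fold change was -0.01 ± 0.05 (adjusted p = 0.945); with unscaled totals it was called lower, at -0.16 (adjusted p = 0.0146). Exons of ZNF146 overlap ZNF565 on the other strand, those of ZNF318 overlap CRIP3, those of ZNF217 overlap a pair of unnamed antisense genes, and those of ZNF664 overlap RFLNA and CCDC92. The strand setting of the counting is not given in the sources used here, so reads of such pairs cannot be told apart.

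The 10 genes that fell furthest were all KRAB genes by the profile described below, and 8 of them lie on chromosome 19. ZNF699 (GRCh38, chr19:9294275-9309838, minus strand), whose loss causes a developmental disorder of blood, gut and brain, had 8.53 and 8.26 CPM with shRNA1 and 7.70 and 6.03 CPM with shRNA2, against 27.5 and 25.9 CPM in shControl. ZNF558 (chr19:8806170-8832328, minus strand), which in human neural progenitors silences the mitophagy gene SPATA18, had 9.94 and 8.37 CPM with shRNA1 and 9.61 and 12.2 CPM with shRNA2, against 28.6 and 25.8 CPM in shControl. ZNF844 had 6.79 and 5.28 CPM with shRNA1 and 2.64 and 4.11 CPM with shRNA2, against 10.4 and 13.7 CPM in shControl. The fitted control level of ZNF699 was 3.50 times its knockdown level, no group overlapped in any of the 3 genes, and the knockdown libraries of ZNF844 spread the most. Fold changes were -1.81 ± 0.11 (adjusted p = 2.02e-09) for ZNF699, -1.45 ± 0.12 (adjusted p = 3.80e-08) for ZNF558 and -1.44 ± 0.19 (adjusted p = 1.39e-05) for ZNF844. ZNF25, on chromosome 10, had 7.32 and 7.37 CPM with shRNA1 and 5.78 and 5.65 CPM with shRNA2, against 16.8 and 16.7 CPM in shControl. ZNF83 had 13.3 and 13.0 CPM with shRNA1 and 17.5 and 15.3 CPM with shRNA2, against 35.2 and 39.3 CPM in shControl. ZNF773 had 4.03 and 6.43 CPM with shRNA1 and 4.08 and 5.02 CPM with shRNA2, against 11.7 and 11.8 CPM in shControl. In none of these did a knockdown library reach a control library, and their fold changes were -1.37 ± 0.12, -1.34 ± 0.09 and -1.27 ± 0.18, with adjusted p-values of 1.22e-07, 5.56e-09 and 2.07e-05. ZNF264 had 9.88 and 6.69 CPM with shRNA1 and 7.31 and 6.32 CPM with shRNA2, against 18.2 and 17.8 CPM in shControl, and ZNF621, on chromosome 3, had 19.7 and 16.9 CPM with shRNA1 and 17.7 and 14.8 CPM with shRNA2, against 40.5 and 40.7 CPM in shControl. ZNF175, known for repressing the HIV promoter, had 7.73 and 7.48 CPM with shRNA1 and 8.45 and 8.13 CPM with shRNA2, against 17.9 and 16.9 CPM in shControl. ZNF426, known for repressing the switch gene of Kaposi sarcoma herpesvirus, had 15.6 and 15.5 CPM with shRNA1 and 13.1 and 9.71 CPM with shRNA2, against 26.4 and 31.4 CPM in shControl. These 4 genes too were separated by group, with fold changes of -1.26 ± 0.14, -1.23 ± 0.09, -1.13 ± 0.12 and -1.11 ± 0.12 and adjusted p-values of 1.98e-06, 1.59e-08, 6.28e-07 and 1.13e-06. In all, 12 ZNF genes were called lower by more than 1 on the log2 scale and 1 was called higher by that much. Over the 16039 tested genes 1298 were lower and 739 higher by that much. Among the 9769 tested genes at 10 CPM or more in shControl 537 were lower and 321 higher. The share of such lower genes in the set lay between these backgrounds. Antisense exons of unnamed genes overlap ZNF699 and ZNF558, and 5.80% of the 75-base words of ZNF773 also occur in ZNF419.

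**Figure D2:**
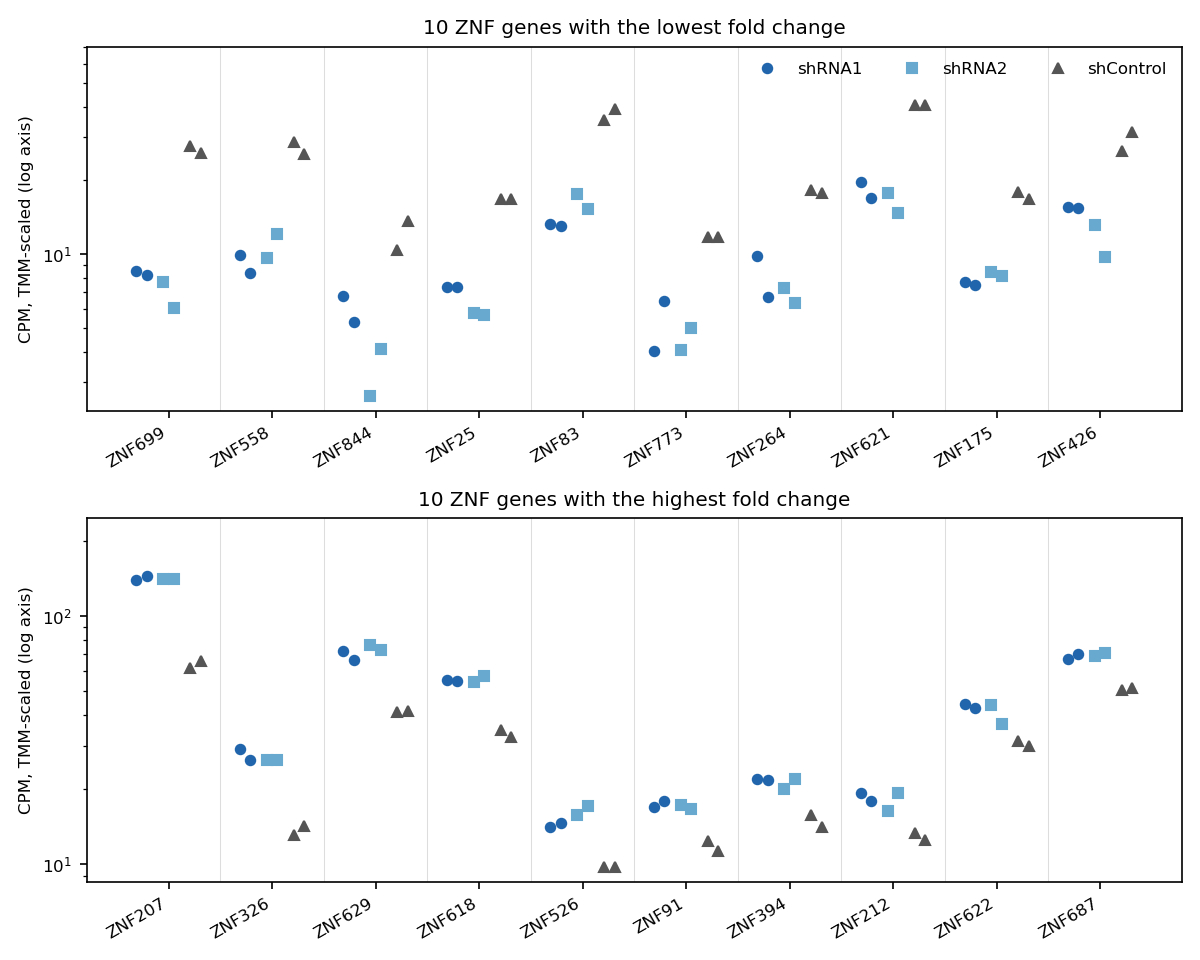
TMM-scaled CPM (log axis) in each library of the 10 ZNF genes with the lowest (top) and the 10 with the highest (bottom) fold change, with shRNA1 and shRNA2 left of shControl for each gene. No knockdown point reaches a control point of the same gene in either panel.

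The 10 genes that rose furthest held 7 without a KRAB match. ZNF207 (chr17:32350117-32381886, plus strand), also called BuGZ, which carries the checkpoint protein BUB3 to kinetochores, had 139 and 144 CPM with shRNA1 and 141 and 141 CPM with shRNA2, against 61.6 and 65.8 CPM in shControl. ZNF326, of the DBIRD complex that links transcript elongation to splicing, had 29.2 and 26.3 CPM with shRNA1 and 26.3 and 26.4 CPM with shRNA2, against 13.1 and 14.3 CPM in shControl. ZNF629 had 72.0 and 66.2 CPM with shRNA1 and 76.0 and 72.8 CPM with shRNA2, against 41.0 and 41.4 CPM in shControl. Knockdown levels of ZNF207 were more than 2 times the control levels, and none of the 3 genes overlapped between groups. Their fold changes were 1.15 ± 0.05 (adjusted p = 1.14e-11), 0.98 ± 0.10 (adjusted p = 3.41e-07) and 0.80 ± 0.06 (adjusted p = 1.72e-08). ZNF618, a partner of the DNA-binding ubiquitin ligase UHRF2, had 55.1 and 54.4 CPM with shRNA1 and 54.3 and 57.1 CPM with shRNA2, against 34.7 and 32.6 CPM in shControl. ZNF526 had 14.2 and 14.6 CPM with shRNA1 and 15.8 and 17.1 CPM with shRNA2, against 9.76 and 9.74 CPM in shControl. ZNF91, the KRAB protein that in humans represses SVA retrotransposons, had 17.1 and 17.9 CPM with shRNA1 and 17.3 and 16.7 CPM with shRNA2, against 12.4 and 11.3 CPM in shControl. All knockdown libraries of these genes stood above both controls, with fold changes of 0.72 ± 0.06, 0.66 ± 0.11 and 0.54 ± 0.11 and adjusted p-values of 1.40e-07, 1.14e-04 and 4.44e-04. ZNF394 had 21.97 and 21.8 CPM with shRNA1 and 20.2 and 22.01 CPM with shRNA2, against 15.7 and 14.1 CPM in shControl, and ZNF212 had 19.3 and 18.0 CPM with shRNA1 and 16.5 and 19.4 CPM with shRNA2, against 13.4 and 12.6 CPM in shControl. ZNF622, which helps release factors from the maturing large ribosomal subunit, had 44.0 and 42.4 CPM with shRNA1 and 43.8 and 36.6 CPM with shRNA2, against 31.2 and 29.999 CPM in shControl. ZNF687, a partner of the chromatin reader ZMYND8, had 67.2 and 69.9 CPM with shRNA1 and 68.6 and 71.0 CPM with shRNA2, against 50.5 and 51.3 CPM in shControl. The groups did not overlap in these 4 either, with fold changes of 0.53 ± 0.10, 0.49 ± 0.11, 0.45 ± 0.08 and 0.44 ± 0.06 and adjusted p-values of 3.40e-04, 0.00130, 2.21e-04 and 5.96e-06. Exons of ZNF394 overlap ZNF789 and those of ZNF687 overlap PI4KB, both on the other strand, and 2.36% of the 75-base words of ZNF207 occur in the overlapping gene AC005899.4.

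Whether these genes encode zinc fingers was checked on coding sequence. In 167 of the 173 genes the longest coding sequence of GENCODE 29 held at least 1 C2H2 finger pattern, the median was 9 fingers and the most was 33, in ZNF462. The genes ZNF862, ZNF330, ZNF703, ZNF839, ZNF503 and ZNF365 held no such pattern. A profile built from 198 seed sequences matched KRAB in 80 genes, and one built from 16 seeds matched SCAN in 13, of which 10 had both. One finger of the lowest, of a higher and of a highly expressed ZNF gene is shown to make the repeated unit visible. Each run starts at the codon of the first zinc-binding cysteine, ends before that of the next finger, and has the codons of the linker between fingers in capitals.

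ZNF699: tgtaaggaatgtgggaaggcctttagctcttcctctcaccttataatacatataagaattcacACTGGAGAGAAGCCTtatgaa

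ZNF91: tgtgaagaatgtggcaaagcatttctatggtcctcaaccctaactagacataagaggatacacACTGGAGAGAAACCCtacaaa

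ZNF146: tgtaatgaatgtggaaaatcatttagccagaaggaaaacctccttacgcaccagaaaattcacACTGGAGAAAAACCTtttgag

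These 84-base units are coding bases 1009 to 1092 of ZNF699, 802 to 885 of ZNF91 and 220 to 303 of ZNF146, all on chromosome 19 of GRCh38. ZNF699 and ZNF91 are identical at 59 of the 84 positions, ZNF699 and ZNF146 at 55, and ZNF91 and ZNF146 at 53. ZNF699 and ZNF146 were lower, with fold changes of -1.81 ± 0.11 and -0.86 ± 0.05, and ZNF91 was higher, at 0.54 ± 0.11. Fragments of such repeats can align to more than one gene, and how the authors treated them is not given in the sources used here. In 15 ZNF genes more than 10% of the 75-base words also occur in another gene. Leaving these out, 78 of 158 genes were lower and 17 higher. Exons of 81 genes overlap another gene, 59 of them on the other strand, and of the 92 without an overlap 49 were lower and 9 higher.

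Of genes with KRAB 55.0% were called lower, and of those without it 43.0%. Over all tested genes 28.9% were lower and 28.6% higher, and over tested genes at 10 CPM or more in shControl 35.2% and 38.2%. Of the 80 KRAB genes 44 were lower and 7 higher (median -0.32), and of the 93 others 40 were lower and 11 higher (median -0.20). The KRAB genes held 0.122 and 0.122% of all counts with shRNA1 and 0.121 and 0.121% with shRNA2, against 0.169 and 0.171% in shControl. All 4 knockdown libraries again lay below both controls, and these too are shares of unscaled totals. Among the KRAB genes those of chromosome 19 had the lower median. There 25 of 37 KRAB genes were lower and 4 higher (median -0.41), whereas on other chromosomes 19 of 43 were lower and 3 higher (median -0.21). Genes without KRAB had medians of -0.14 on chromosome 19 (7 of 19 or 36.8% lower, 1 higher) and -0.20 elsewhere (33 of 74 or 44.6% lower, 10 higher). With trends on exon length and on GC content taken out by a smooth fit, these 4 medians were -0.31, -0.16, 0.01 and -0.13, while that of all ZNF genes of the set was -0.16 and that of all tested genes 0.06, against -0.24 and -0.03 without the trend removed. The difference between the classes was not tested. The 13 SCAN genes had a median of 0.00, with 4 lower (30.8%) and 2 higher (15.4%). Their share of lower genes, like that of the genes without KRAB on chromosome 19, was near the background. By number of fingers, 41 of 81 genes with 10 or more fingers (50.6%), 31 of 64 with 4 to 9 (48.4%) and 12 of 28 with 0 to 3 (42.9%) were lower.

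**Figure D3:**
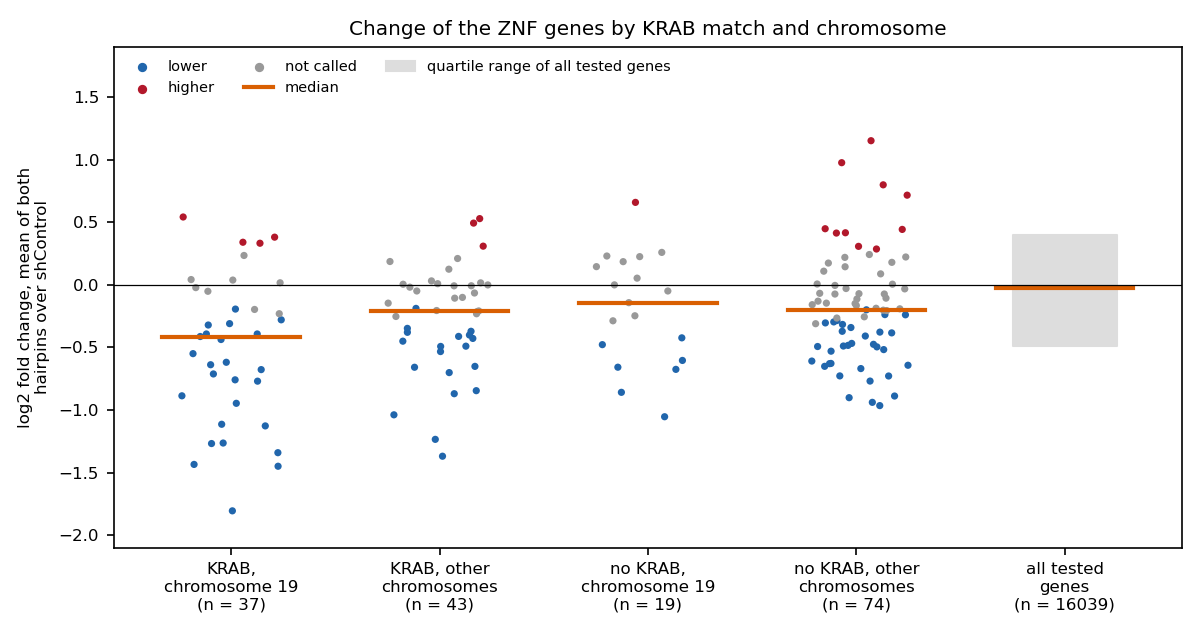
log2 fold change of both hairpins' mean over shControl for each ZNF gene, by KRAB match and chromosome, coloured by call, with class medians as orange lines and the range between the quartiles of all tested genes as a grey band. KRAB genes of chromosome 19 have a median of -0.41 and the other 3 classes medians between -0.21 and -0.14.

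The lower genes were spread along chromosome 19. Of its 56 ZNF genes 32 were lower and 5 higher (median -0.36), while of all 1089 tested genes of that chromosome 250 were lower and 335 higher (median 0.05). The genes were split into groups wherever neighbours lay more than 500 kb apart. In the group of 9 from ZNF414 to ZNF562 (chr19:8509678-9675086), which holds ZNF699, ZNF558 and ZNF426, 8 were lower and none higher. In the groups of 11 from ZNF766 to ZNF761 (chr19:52269571-53458261) and of 11 from ZNF264 to ZNF446 (chr19:57191500-58481230), 7 were lower and 1 higher each. The group of 8 between them, from ZNF628 to ZNF71 (chr19:55476332-56626481), had 2 lower and none higher, with a median of 0.16. That last group holds 1 KRAB gene, ZNF71, and is otherwise made of genes without KRAB. Away from chromosome 19, all 8 ZNF genes of chromosome 8 and all 6 of chromosome 6 were lower for the mean of both hairpins, against 32.7% and 30.1% of all tested genes there. By single hairpin these were 6 with shRNA1 and 7 with shRNA2 on chromosome 8, and 6 with shRNA1 and 4 with shRNA2 on chromosome 6. On chromosome 9, 3 of 4 ZNF genes were higher and 1 lower, on chromosome 17 none of 2 was lower and 1 was higher, and none of the 4 on chromosome 2 was called. By single hairpin, 3 on chromosome 9 were higher with each, and 1 was lower with shRNA2 but none with shRNA1. The shares of all tested genes on chromosomes 9, 17 and 2 are not given here. Over all tested genes 28.9% were lower and 28.6% higher. Chromosomes 6, 8, 9, 17 and 2 were picked after their values were seen.

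**Figure D4:**
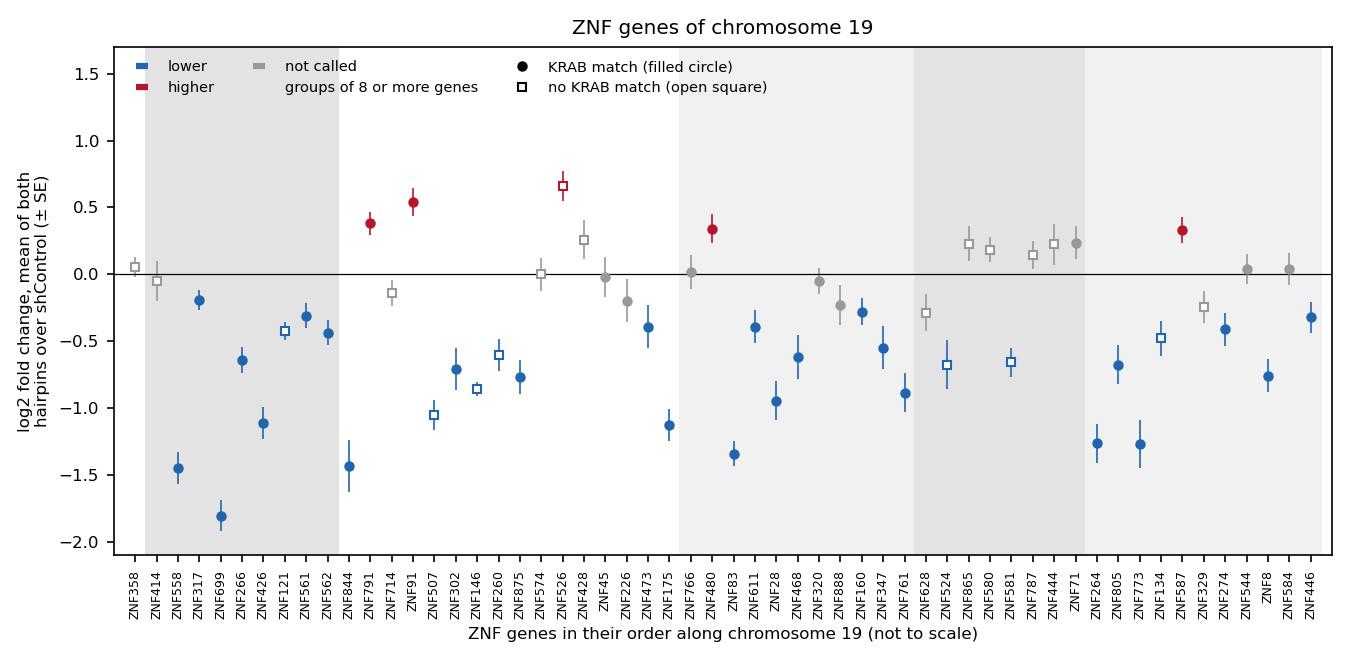
log2 fold change of both hairpins' mean over shControl (bars are standard errors) of the 56 ZNF genes of chromosome 19 in their order along it, with filled circles for a KRAB match and open squares for none, and grey bands for groups of 8 or more genes. In the first band 8 of 9 genes are lower, and in the third 2 of 8.

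Most genes of a broad list of KRAB corepressor and related silencing machinery were higher after knockdown. Of these 24 genes 15 were higher (62.5%), 3 lower and 6 not called, with a median of 0.38. Over all tested genes 28.6% were higher, with a median of -0.03. The list reaches beyond TRIM28 and SETDB1, for example to the DNA methylation genes UHRF1 and DNMT1. Besides SETDB1, ATF7IP (0.03 ± 0.07), CBX1 (0.05 ± 0.05), CBX3 (0.06 ± 0.04), MORC2 (0.05 ± 0.05) and SMARCAD1 (-0.10 ± 0.10) were not called. All 24 lay above 10 CPM in shControl, and among tested genes at that level 38.2% were higher, with a median of 0.02. TRIM28, the scaffold that binds KRAB, had 467 and 460.2 CPM with shRNA1 and 474 and 502 CPM with shRNA2, against 284 and 274 CPM in shControl. SETDB1, the methyltransferase that TRIM28 brings, had 33.9 and 35.6 CPM with shRNA1 and 32.8 and 36.5 CPM with shRNA2, against 39.3 and 37.7 CPM in shControl. TRIM28 stood clearly above its controls in every knockdown library, at 0.77 ± 0.03 (adjusted p = 2.84e-11), while SETDB1 lay a little below and was not called, at -0.15 ± 0.07 (adjusted p = 0.0960). With unscaled totals SETDB1 was called lower, at -0.31 (adjusted p = 0.00230), and with them 12 genes of the list were higher and 6 lower. UHRF1, which guides DNA methylation to replicated DNA, had 131 and 146 CPM with shRNA1 and 137 and 144 CPM with shRNA2, against 63.1 and 66.0 CPM in shControl. DNMT1, the methyltransferase it guides, had 194 and 199.5 CPM with shRNA1 and 202 and 195 CPM with shRNA2, against 94.4 and 98.6 CPM in shControl. HDAC1, a deacetylase of several repressor complexes, had 196 and 185 CPM with shRNA1 and 188 and 191 CPM with shRNA2, against 101 and 97.4 CPM in shControl. All 3 genes stood above both controls in every knockdown library, with fold changes of 1.11 ± 0.05 (adjusted p = 8.32e-11), 1.03 ± 0.04 (adjusted p = 7.45e-12) and, for HDAC1, 0.94 ± 0.04 (adjusted p = 3.33e-11). The 3 lower genes were MORC3 at -0.41 ± 0.08, TASOR at -0.39 ± 0.07 and EHMT1 at -0.16 ± 0.06, the last not called without replicate 1 of shRNA1 (adjusted p = 0.0733) or of shControl (0.195), or with DESeq2 (0.0731). TASOR is the platform of the HUSH silencing complex, whose other subunits MPHOSPH8 and PPHLN1 were higher, at 0.40 ± 0.09 and 0.81 ± 0.08 (adjusted p = 7.90e-04 and 3.29e-07).

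**Figure D5:**
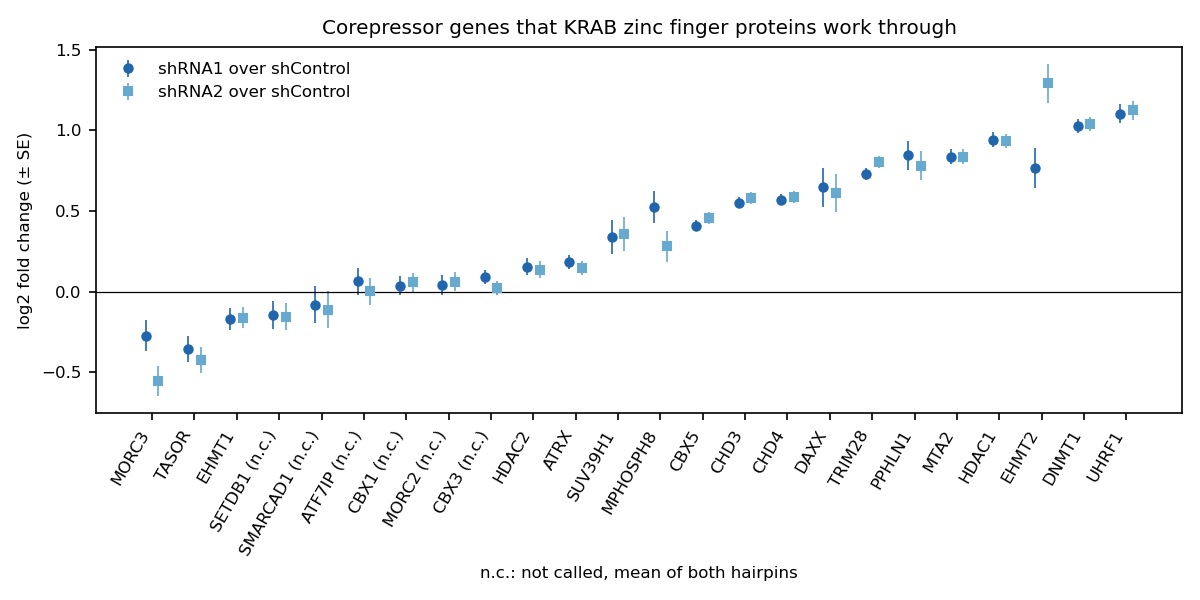
log2 fold change over shControl with shRNA1 (circles) and shRNA2 (squares) of the 24 genes of the corepressor and silencing list, ordered by the mean of both, with standard errors as bars. SETDB1 and 5 other genes are not called, and DNMT1, UHRF1 and EHMT2 reach a mean log2 fold change above 1.

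ZNF genes with roles outside KRAB silencing moved in both directions. Among 11 listed for RNA, ribosome and splicing roles, 9 of them in the set, 4 were higher (36.4%) and 3 lower (27.3%), near the 28.6% and 28.9% of all tested genes and the 38.2% and 35.2% of those at 10 CPM or more. The higher ones were ZNF207, ZNF326 and ZNF622, described above, and ZNF385A, a gene outside the set and under 10 CPM that binds RNA, at 0.99 ± 0.12 (adjusted p = 3.88e-06). The lower ones were ZNF106, ZNF473, which takes part in the 3′ processing of histone transcripts, at -0.39 ± 0.16 (adjusted p = 0.0478), and ZNF598, the ligase that senses collided ribosomes. The call of ZNF473 was lost with any library left out except replicate 2 of shControl (adjusted p of 0.0618 to 0.547), with DESeq2 (0.126) and with the length and GC trend removed (0.114). ZNF598 had 66.2 and 62.9 CPM with shRNA1 and 70.2 and 63.5 CPM with shRNA2, against 82.0 and 79.5 CPM in shControl. Its knockdown libraries all lay below the controls, with a fold change of -0.30 ± 0.06 (adjusted p = 3.79e-04).

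Of 22 partners of chromatin complexes 20 could be tested, 16 of which are in the set, and 7 were lower (35.0%) and 3 higher, against 28.9% and 28.6% of all tested genes and 35.2% and 38.2% of those at 10 CPM or more. The share of lower genes was near that background. ZNF451, a SUMO ligase, had 33.2 and 32.5 CPM with shRNA1 and 34.6 and 33.3 CPM with shRNA2, against 61.0 and 62.7 CPM in shControl. ZNF532, another ZMYND8 partner, had 35.5 and 32.5 CPM with shRNA1 and 33.8 and 37.8 CPM with shRNA2, against 55.0 and 54.4 CPM in shControl. Both fell in every knockdown library, with fold changes of -0.89 ± 0.06 (adjusted p = 6.90e-09) and -0.65 ± 0.07 (adjusted p = 9.96e-07), whereas ZNF687 rose and ZNF592, of the same ZMYND8 group, was at 0.14 ± 0.07 (adjusted p = 0.0738), and higher by call without replicate 1 of shRNA1 (0.0346). ZNF518A, ZNF518B and ZNF512B, whose symbols end in a letter, are outside the set. The others called lower were ZNF217, ZNF609, ZNF131 at -0.48 ± 0.09, ZNF518A at -0.68 ± 0.13 and ZNF518B at -0.62 ± 0.11. The others called higher were ZNF462 at 0.31 ± 0.05 and ZNF512B at 0.33 ± 0.07.

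Of 5 activators bound at promoters 2 were lower and 1 higher. The lower and higher shares of all tested genes were 28.9% and 28.6%, and of those at 10 CPM or more 35.2% and 38.2%. Whether the split of these 5 genes differs from that background was not tested. ZNF143, which binds many housekeeping promoters, had 18.1 and 19.7 CPM with shRNA1 and 18.6 and 18.2 CPM with shRNA2, against 13.7 and 14.3 CPM in shControl. ZNF76, its closest relative, had 30.03 and 36.0 CPM with shRNA1 and 37.8 and 36.0 CPM with shRNA2, against 40.0 and 40.3 CPM in shControl. ZNF740 had 33.8 and 31.8 CPM with shRNA1 and 34.7 and 35.8 CPM with shRNA2, against 51.8 and 53.4 CPM in shControl. ZNF143 rose, at 0.42 ± 0.10 (adjusted p = 0.00249), with knockdown libraries above the controls. ZNF740 fell, at -0.63 ± 0.07 (adjusted p = 6.93e-07), and ZNF76 was barely called, at -0.20 ± 0.08 (adjusted p = 0.0418), and its adjusted p was 0.192 without replicate 1 of shRNA1, 0.0949 without replicate 2 of shRNA2, and 0.108 and 0.151 without replicates 1 and 2 of shControl, and 0.109 with DESeq2. ZNF410, which drives the remodeler gene CHD4, was at -0.13 ± 0.06 (adjusted p = 0.0703), and 31.4% of its 75-base words occur in AC005520.1; it was called lower without replicate 2 of shRNA2 (0.0302).

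Of 14 ZNF genes known for repeat or imprint targets, 8 of them in the set, 3 were higher and 3 lower (21.4% each), against 28.6% and 28.9% of all tested genes. The higher ones were ZNF91, ZNF445 and ZNF587. ZNF445, which keeps imprinted regions methylated, had 39.2 and 43.2 CPM with shRNA1 and 45.5 and 46.5 CPM with shRNA2, against 36.2 and 34.2 CPM in shControl. Its fold change was 0.31 ± 0.07 (adjusted p = 0.00151), and with unscaled totals 0.15 (adjusted p = 0.0759). ZNF587, a repressor of HERV-K elements, was at 0.33 ± 0.10 (adjusted p = 0.00952). The lower ones were ZNF146, ZNF274 at -0.41 ± 0.12 (adjusted p = 0.00884), which brings SETDB1 to the 3′ ends of ZNF genes themselves, and ZNF519 at -0.63 ± 0.16 (adjusted p = 0.00426), a gene under 10 CPM. Without replicate 2 of shControl ZNF587 and ZNF274 were not called (adjusted p = 0.108 and 0.140), nor was ZNF519 without replicate 1 of shControl (0.0818). ZNF320 was not called, at -0.05 ± 0.10 (adjusted p = 0.669), and shares 73.0% of its 75-base words with other genes.

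Promoter letters were searched in the RefSeq table of 250 bases before to 50 after the gene start on GRCh38.p14, where 149 of the 173 genes had an entry. The letters CCGGAAG, the core bound by ETS factors, occurred on either strand in 61 of these promoters (40.9%), against 18.96% of the 11026 promoters of tested genes and 10.7% of all 27305. Of the ZNF genes with these letters 26 of 61 were lower (42.6%) and 6 higher (9.84%), with a median of -0.20. Of those without them 43 of 88 were lower (48.9%) and 8 higher (9.09%), with a median of -0.25. Over all tested genes 28.9% were lower and 28.6% higher. Calls of all tested genes split by these letters are not given here, and whether calls go with the letters was not tested. The letters TGACGTCA, a CRE site, occurred in 6.71%, against 3.23% of tested and 1.98% of all promoters. The letters ACTACAATT, part of the ZNF143 site, occurred in 4 promoters (2.68%), against 0.626% and 0.370%, and these were ZNF121, ZNF277, ZNF317 and ZNF451. The letters AAGATGGCG of the YY1 site occurred in 3.36%, against 3.85% of tested and 1.85% of all promoters. The ETS and YY1 letters can overlap by the letters they share. The median GC content of the 149 promoters was 64.3%, against 58.3% of all. No background here was matched to the ZNF genes by level, since the tested genes include many under 10 CPM in shControl. The GC content of the promoters of tested genes is not given here, and its part in the letter shares was not tested. A match of letters is a description of the window and not a bound site.

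Promoters of a lower gene and a higher gene with ETS letters, and of a lower gene with ZNF143 letters, are printed with those letters in capitals (ZNF91 holds them on the opposite strand). ZNF558 is chr19:8832255-8832554 (minus strand), ZNF91 is chr19:23395422-23395721 (minus strand) and ZNF451 is chr6:57089938-57090237 (plus strand).

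ZNF558: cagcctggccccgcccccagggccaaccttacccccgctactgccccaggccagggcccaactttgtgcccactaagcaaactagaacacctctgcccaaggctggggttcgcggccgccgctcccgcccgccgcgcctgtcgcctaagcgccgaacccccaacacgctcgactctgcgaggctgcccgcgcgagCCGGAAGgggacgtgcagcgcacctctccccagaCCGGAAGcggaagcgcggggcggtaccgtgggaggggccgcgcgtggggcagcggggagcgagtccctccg

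ZNF91: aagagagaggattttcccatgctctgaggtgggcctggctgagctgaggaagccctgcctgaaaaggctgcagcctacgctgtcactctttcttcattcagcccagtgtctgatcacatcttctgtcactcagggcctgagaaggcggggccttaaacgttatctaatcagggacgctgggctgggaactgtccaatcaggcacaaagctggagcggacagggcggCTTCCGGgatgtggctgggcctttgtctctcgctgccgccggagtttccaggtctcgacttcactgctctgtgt

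ZNF451: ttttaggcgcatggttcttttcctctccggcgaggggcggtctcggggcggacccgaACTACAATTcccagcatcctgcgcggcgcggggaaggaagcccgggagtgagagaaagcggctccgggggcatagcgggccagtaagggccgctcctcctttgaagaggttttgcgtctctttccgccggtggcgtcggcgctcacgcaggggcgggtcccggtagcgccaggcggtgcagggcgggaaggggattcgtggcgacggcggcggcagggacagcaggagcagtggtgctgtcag

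The same ETS letters thus stand before ZNF558, at -1.45 ± 0.12, and before ZNF91, at 0.54 ± 0.11. Beyond ZNF451, at -0.89 ± 0.06, the letters of ZNF143 stand before ZNF121 and ZNF317, both called lower, at -0.42 ± 0.07 and -0.19 ± 0.07, and before ZNF277, at -0.67 ± 0.09 (adjusted p = 8.28e-06). Of all 173 ZNF genes 48.6% were lower, against 28.9% of all tested genes. Calls of the other tested genes with these letters are not given here, and a link of calls to the letters was not tested. The call of ZNF317 was lost without replicate 1 of shRNA1 or shRNA2, or without either control (adjusted p of 0.0591 to 0.200), with DESeq2 (0.101) and with the length and GC trend removed (0.112). The promoter of ZNF143 itself holds the ETS and the CRE letters.

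The hairpins were also compared with each other. Between shRNA1 and shRNA2 no ZNF gene was called in either direction by edgeR, and over all tested genes 4 were lower (0.0249%) and 1 higher (0.00623%) with shRNA1. At an unadjusted p under 0.05 the counts of ZNF genes were 6 lower and 8 higher with shRNA1, and DESeq2 called none, with 2 and 3 at an unadjusted p under 0.05. The shares of all tested genes at that unadjusted p are not given here, so these counts were not set against a background. The widest gap was in ZNF844, where the shRNA1 over shRNA2 log2 fold change was 0.85 ± 0.25 (adjusted p = 0.905). ZNF517 was at the other end, at -0.49. The libraries' median ZNF gene, as log2 CPM after each gene was centred over the 6 libraries, was -0.08 and -0.07 with shRNA1 and -0.05 and -0.08 with shRNA2, against 0.14 and 0.18 in shControl. The genes whose 6 values followed that profile most closely were ZNF451 (Pearson r = 0.995), ZNF770 (r = 0.991) and ZNF800 (r = 0.990), given as a description of 6 libraries that fall into knockdown and control. ZNF770 had 42.3 and 46.4 CPM with shRNA1 and 46.1 and 47.1 CPM with shRNA2, against 81.6 and 88.2 CPM in shControl. ZNF800 had 23.4 and 22.02 CPM with shRNA1 and 23.0 and 21.6 CPM with shRNA2, against 34.3 and 35.3 CPM in shControl. Both lay lower in every knockdown library than in either control, with fold changes of -0.90 ± 0.06 (adjusted p = 3.55e-09) and -0.63 ± 0.08 (adjusted p = 5.51e-06).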

How the data were processed

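RNA of 786-O cells was measured in 6 libraries, 2 each with shRNA1, shRNA2 and shControl. The authors deposited raw counts, 1 whole number for each gene and library. Per the submitters' processing notes, the authors used FastQC 0.11.9, Trim Galore 0.6.7, HISAT2 2.2.1 and StringTie 2.2.1 on hg38. The counting tool, annotation release, strand and multi-mapping settings were not given in the sources used here. Reads that align to several ZNF genes or to overlapping genes could therefore be split or dropped.

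Genes passing filterByExpr (16039) were fitted with edgeR 4.0.16 (R 4.3.3; TMM scaling, robust quasi-likelihood, no intercept, all 6 libraries sharing the dispersion estimate). P-values were adjusted by Benjamini-Hochberg over all tested genes, and all 173 ZNF genes of the set were among them. A level of 1 CPM stood for 14.9 to 36.0 counts per library. Genes named are the 6 with the highest control level, the 10 lowest and 10 highest fold changes among genes called alike in all 3 contrasts with shControl, up to 4 of each list by p, those nearest the threshold, and those most like the median ZNF gene. Others were named after their values were seen. The genes, lists and rules were chosen with earlier results of these data known.

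Positions, exon lengths, overlaps and coding sequences come from GENCODE 29 on GRCh38. KRAB and SCAN were matched to coding sequences by profiles made from seed matches with pyhmmer 0.12.3 (E-value of at most 0.001), and promoters come from RefSeq on GRCh38.p14. Alternatives were DESeq2 1.42.0, other scaling and filters, glmTreat against a fold of 1.2, removal of a trend on length and GC content with mgcv 1.9.3, a replicate block, other level thresholds and leaving out each library. Excluding overlapping genes, excluding shared sequence and the threshold on the mean of both levels were added after the data were seen. The fit was tested on simulated data over genes of all levels. For the mean of both hairpins it called 56.8% of genes changed 1.5-fold and 63.5% of those changed 2-fold, with 14 false calls. A gene that was not called may therefore still have changed.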

Additional observations from a re-analysis of the deposited data

How the results depend on the processing

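For the mean of both hairpins, the 84 lower and 18 higher ZNF genes were 84 and 18 with RLE factors, 71 and 17 with DESeq2, 111 and 14 with unscaled totals and 72 and 25 with the length and GC trend removed. All tested genes moved too, with 37.6% lower and 21.2% higher with unscaled totals and 24.8% and 33.0% with the trend removed, against 28.9% and 28.6%. With DESeq2 24.7% of all tested genes were lower and 26.2% higher. With unscaled totals 12 ZNF genes were higher with shRNA1 and 11 with shRNA2. With glmTreat the higher ZNF genes were 11 with shRNA1, 8 with shRNA2 and 11 for the mean. Of all tested genes 18.3%, 18.2% and 19.3% were then higher, and 20.2% were lower for the mean. The lower ZNF genes with glmTreat are not given here. Among ZNF genes at 20 CPM or more, lower and higher genes were 44 and 10 with shRNA1, 40 and 12 with shRNA2 and 47 and 10 for the mean. Without overlapping genes these were 42 and 9, 41 and 11, and 49 and 9, and with 10 CPM asked of the knockdown libraries 48 were lower with shRNA2 and 55 for the mean; these settings hold fewer genes by construction. Without the filter on low counts 1 ZNF gene was higher with shRNA1 than with shRNA2. Leaving out 1 library at a time gave 56 to 74 lower and 16 to 19 higher genes with shRNA1, 56 to 75 and 13 to 21 with shRNA2, and 67 to 80 and 16 to 23 for the mean. The 13 was without shRNA2 replicate 2. Where a group then had 1 library, it was assumed to vary like the others.

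With the replicate block the counts were 73 and 19 with shRNA1, 75 and 21 with shRNA2 and 84 and 19 for the mean, and of the named genes LINC02068 (adjusted p = 0.0506) and ZNF473 (0.0550) lost their calls and ZNF592 gained one (0.0407). Deviations of same-numbered libraries correlated at -0.001, 0.011 and -0.029, so the numbers were not taken to pair the libraries. A fit to only the groups compared was run for single hairpins, since the mean of both already uses every group. Against a fold of 1.2, LINC02068, EHMT1, ZBTB20, ZNF76, ZNF143, ZNF274, ZNF317, ZNF445, ZNF462, ZNF473, ZNF512B, ZNF587, ZNF598 and ZNF609 were not called. No named gene that was called changed direction under any setting run. Apart from the constructions named, the cause of these moves was not tested. Depth limits the genes near 10 CPM most, whose standard errors were about 0.15 on the log2 scale.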

Other observations

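Related zinc finger families outside the set were counted the same way for the mean of both hairpins. Of 27 ZBTB genes at 10 CPM or more in shControl, which pair fingers with a BTB domain, 13 were lower and 7 higher, with a median fold change of -0.21. Of all tested genes at that level 35.2% were lower and 38.2% higher, against 48.1% and 25.9% of these 27. ZBTB38, a reader of methylated DNA, had 189.6 CPM with shRNA1 and 191 CPM with shRNA2, against 257 CPM in shControl, a fold change of -0.43 ± 0.03 (adjusted p = 1.41e-08) by edgeR. ZBTB20 went the other way, with 43.8 CPM with shRNA1 and 37.4 CPM with shRNA2, against 22.7 CPM in shControl, at 0.84 ± 0.22 (adjusted p = 0.0325), and was not called without either library of shRNA2 or without replicate 2 of shControl (adjusted p of 0.0743 to 0.0952) or with unscaled totals (0.0606). Of 13 ZSCAN and ZKSCAN genes 8 were lower (61.5%) and none higher (median -0.37), among them ZKSCAN1 at -0.45 ± 0.04 (adjusted p = 3.08e-07). Of 8 ZFP genes 4 were lower and 1 higher, and ZFP90 was at -0.81 ± 0.07 (adjusted p = 1.47e-07). Singly named genes were chosen after their values were seen.

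Of the 243 ZNF genes tested under 10 CPM, 46 were lower and 22 higher, with a median of -0.13. These are 18.9% and 9.05%, against 19.1% and 13.6% of all tested genes under 10 CPM, whose median was -0.12. With the length and GC trend removed 40 (16.5%) and 33 (13.6%) were lower and higher, against 17.5% and 15.3% of all tested genes under 10 CPM. Antisense genes named after ZNF genes numbered 19, of which 9 were lower and 3 higher, against 28.9% and 28.6% of all tested genes. ZNF436-AS1 had 2.05 CPM with shRNA1 and 1.26 CPM with shRNA2, against 5.71 CPM in shControl, and ZNF213-AS1 had 15.97 CPM with shRNA1 and 14.9 CPM with shRNA2, against 10.2 CPM in shControl, with fold changes of -1.80 ± 0.26 (adjusted p = 2.03e-05) and 0.61 ± 0.13 (adjusted p = 0.00105) by edgeR, the second of them not called without replicate 2 of shControl (adjusted p = 0.0514). Without the strand setting, reads of such genes and of their partners cannot be told apart. Of 14 ZNF pseudogenes 3 were lower (21.4%) and 1 higher (7.14%), against 28.9% and 28.6% of all tested genes and 19.1% and 13.6% of those under 10 CPM. The higher one was ZNF271P, at 0.55 ± 0.09 (adjusted p = 5.84e-05).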
